A study of Mus musculus with 36 samples.

Results

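Loss of HP1α and loss of HP1γ were compared in conventional CD4+ T cells (Tconv) that had been transferred without regulatory T cells (Treg). The comparison used 12 of the 36 RNA-seq libraries of the series, all those labelled Tconv, with 3 libraries in each of 4 groups: HP1a WT, HP1a KO, HP1g WT and HP1g KO. The KO effect of a line is the log2 fold change of KO over WT within that line, and the central quantity is the HP1a KO effect minus the HP1g KO effect, called the difference below. The 2 lines came from mice of a mixed strain background that includes C57BL/6. HP1a KO animals carried a deletion of the gene for HP1α in every tissue, made with a CMV-cre transgene, and their WT controls were littermates. HP1g KO animals carried floxed alleles of the gene for HP1γ that Cd4-cre deletes in T cells, and their WT controls were floxed littermates without Cre. Naive CD4+ T cells of each genotype were injected into irradiated B6 hosts together with a mixture of B6 and semi-allogeneic B6D2F1 bone marrow, and Tconv carrying the Vβ6 receptor chain were later sorted from the spleen. Every host therefore received cells of the marrow donors. According to the paper, hosts given Tconv without Treg rejected the semi-allogeneic cells and kept the syngeneic marrow. No label states that replicates came from separate animals, so p-values measure the spread between these libraries, which may be technical.

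HP1α, HP1β and HP1γ, encoded by Cbx5, Cbx1 and Cbx3, are chromodomain proteins that bind histone H3 methylated at lysine 9. They are best known for the packing and silencing of heterochromatin, where they act beside H3K9 methyltransferases, KAP1 and the large family of KRAB zinc finger proteins. HP1γ is also found along transcribed genes. In T cells, H3K9 methylation is known to take part in keeping genes of other helper programmes silent. The comparison asks which genes the loss of either paralog moved in the same direction, and which it moved in opposite directions or in 1 line alone.

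The libraries held 37029477 to 62699994 estimated counts (median 46570240), and 16979 genes passed the filter on low counts. Levels are given as CPM, counts scaled to the size of the library, in the order of replicates 1, 2 and 3, and can be compared between libraries but not between genes, since they are not scaled by transcript length. Genes are said to be called where the adjusted p was under 0.05 and the log2 value was above 1 or below -1. All tests are edgeR quasi-likelihood tests with Benjamini-Hochberg adjustment over all genes tested. CD4 T cell markers summed to between 7368 and 8914 CPM in all 12 libraries, with no marker at 0. The libraries of the 2 lines carried separate runs of library numbers, and their WT cells differed. Of the genes tested 243 (1.43%) were called between HP1g WT and HP1a WT, a count that ran from 20 to 335 when single libraries were left out, and line and library set cannot be told apart. HP1g KO replicate 1 lay away from its group, at a root mean square log2 distance of 0.526 from replicates 2 and 3 against 0.278 between those.

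Both targeted genes had lower counts in their own KO, without passing the adjusted test. Cbx5 was at 27.9, 29.5 and 25.6 CPM in HP1a WT and at 15.6, 15.7 and 13.6 CPM in HP1a KO. In the HP1g line Cbx5 was at 22.2, 27.6 and 36.7 CPM in WT and at 20.9, 53.6 and 51.9 CPM in KO. The HP1a groups did not overlap, and the HP1g groups did. The HP1a KO effect on Cbx5 was -0.89 ± 0.30 (SE; adjusted p = 0.567, unadjusted p = 0.014) and the difference was -1.43 ± 0.43 (adjusted p = 0.456). Without HP1g KO replicate 1 the difference of Cbx5 had an adjusted p of 0.0413. Cbx3 was at 84.7, 86.5 and 105 CPM in HP1g WT and at 62.8, 67.4 and 73 CPM in HP1g KO, again without overlap, an effect of -0.44 ± 0.10 (adjusted p = 0.125, unadjusted p = 0.00129). In the HP1a line Cbx3 ran from 116 to 145 CPM over both genotypes, with an effect of 0.12 ± 0.10. The remaining paralog Cbx1 had a difference of -0.26 ± 0.21 (unadjusted p = 0.235). Counts cover the whole gene, and reads of the deleted exons were not separated, so a residual count does not measure residual protein-coding transcript.

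The HP1a KO effect and the HP1g KO effect were nearly unrelated across genes. Over the 16979 genes Pearson's r between them was 0.0205 and Spearman's rho 0.0646, as a description across genes that are not independent, and 52.8% of genes had the same sign in both. At an unadjusted p under 0.05, 179 genes passed in both lines, which is 14.7% of the 1215 that passed in the HP1a line, 9.87% of the 1814 that passed in the HP1g line and 1.05% of all genes. Of these, 67 were higher in both KOs and 65 lower in both, together 0.777% of the genes tested, and 47 (0.277%) went in opposite directions, 25 higher in HP1a KO and lower in HP1g KO and 22 the reverse.

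**Figure D1:**
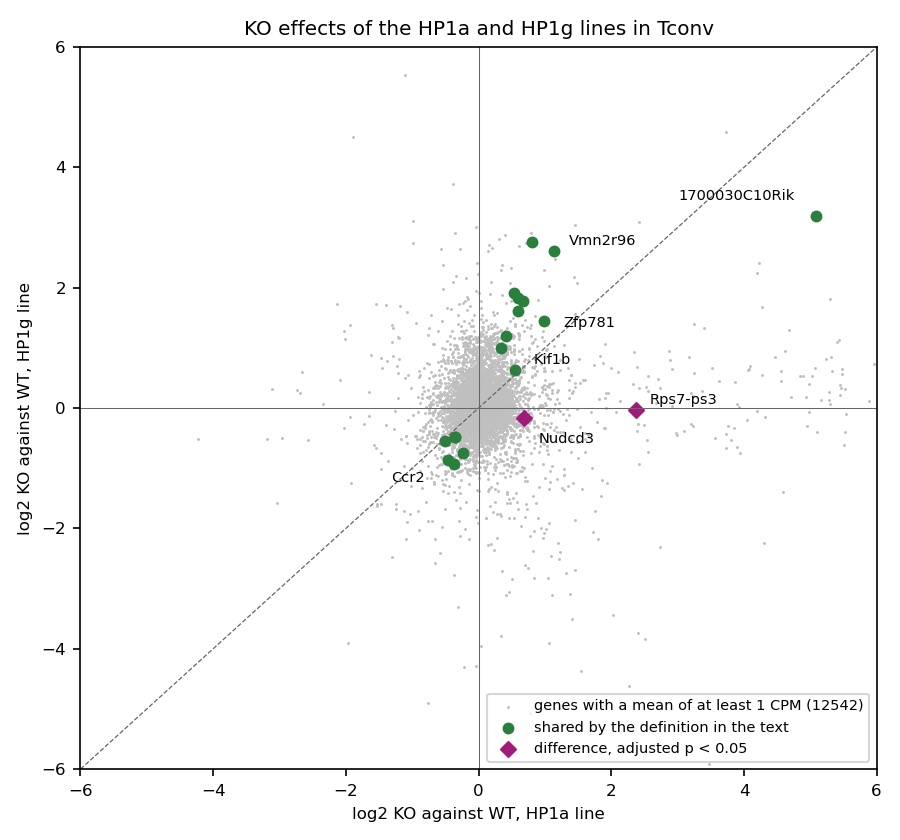
Log2 KO effect in the HP1a line (x axis) against that in the HP1g line (y axis) for the 12542 genes that averaged 1 CPM or more, of which 49 lie outside the axes. Green points are genes with a shared effect (17 drawn) and diamonds genes whose difference passed the adjusted test (2 drawn), and the cloud shows no slope along the dashed line of equal effects.

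The difference was called for 2 genes (0.0118% of those tested), Rps7-ps3 and Trav6d-7, and 1 more, Nudcd3, passed the adjusted test below the fold threshold. All 3 owed most of their difference to the HP1a line. Rps7-ps3, a processed pseudogene of the ribosomal protein gene Rps7 at chrX:151692535-151693116 (GRCm39, minus strand), was at 7.71, 7.21 and 6.36 CPM in HP1a WT and at 38.5, 36.2 and 35 CPM in HP1a KO. In the HP1g line it was at 5.87, 5.37 and 4.93 CPM in WT and at 5.43, 5.24 and 5.1 CPM in KO. It was thus higher in every HP1a KO library than in the other 9, and the HP1g groups overlapped. Its HP1a KO effect was 2.37 ± 0.12 (adjusted p = 6.3e-06), its HP1g KO effect -0.04 ± 0.12 (unadjusted p = 0.761) and the difference 2.40 ± 0.17 (adjusted p = 0.000179). Rps7 itself ran from 361 to 435 CPM in the HP1a line, with an effect of -0.08 (unadjusted p = 0.428). Reads can be shared between a pseudogene and its parent, so the counts of both are uncertain.

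Trav6d-7, a variable segment of the T cell receptor α chain on chromosome 14 (start 53245069), had 109, 173 and 71 counts in HP1a WT and 0 in each HP1a KO library. The HP1g libraries held 134, 104 and 127 counts in WT and 137, 242 and 156 in KO. It was at least 140.3-fold lower in HP1a KO than in HP1a WT, taking a floor of 3 counts over the KO group, and the difference had an adjusted p of 0.00109. The locus holds near-identical duplicated segments, between which reads can be split. Nudcd3, a co-chaperone of HSP90 and dynein (chr11:6055691-6150452, minus strand), was at 94.2, 88.6 and 88.4 CPM in HP1a WT and 146, 141 and 148 CPM in HP1a KO. In HP1g WT it was at 101, 110 and 110 CPM and in HP1g KO at 89.3, 102 and 96.9 CPM. HP1a KO was thus above every other group, and HP1g KO overlapped HP1g WT in 1 library. The effects were 0.68 ± 0.07 (adjusted p = 0.00313) in the HP1a line and -0.16 ± 0.07 (adjusted p = 0.454, unadjusted p = 0.0444) in the HP1g line, a difference of 0.84 ± 0.10 (adjusted p = 0.0165).

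Nudcd3 was the only gene with opposite effects by the definition used, an adjusted p of the difference under 0.05 with both effects at an unadjusted p under 0.05, and its adjusted p rose above 0.05 when any of 7 of the 12 libraries was left out (up to 0.15 without HP1g WT replicate 2). With all 35 usable libraries of the series in 1 fit no difference was called, and the adjusted p of Rps7-ps3, Trav6d-7 and Nudcd3 lay between 0.226 and 0.393, whereas DESeq2 called 142 genes.

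Among genes whose difference did not pass the adjusted test, those with the lowest p mostly had their effect in the HP1g line. Mapk7, which encodes the kinase ERK5, was at 23.7, 28 and 25.8 CPM in HP1a WT, 24.5, 29.2 and 28.8 CPM in HP1a KO and 17.9, 16 and 19 CPM in HP1g WT. In HP1g KO it was at 7.79, 9.08 and 8.97 CPM, below all other libraries. It fell in HP1g KO by 1.04 on the log2 scale (SE 0.12, adjusted p = 0.00431), and the difference of 1.13 ± 0.17 had an adjusted p of 0.0675. Acvr2a, an activin receptor, was at 16, 15.4 and 8.65 CPM in HP1g WT and 4.8, 2.94 and 3.76 CPM in HP1g KO, and ran from 8.28 to 12 CPM in the HP1a line. It fell in HP1g KO by 1.80 (adjusted p = 0.00917), with a difference of 2.13 ± 0.33 (adjusted p = 0.0752, and 0.014 without HP1g WT replicate 3). Marchf6, a ubiquitin ligase of the endoplasmic reticulum, and Icosl, the ligand of the costimulatory receptor ICOS, also fell in HP1g KO (by 0.76 and 0.89), with differences of 0.92 ± 0.14 and 0.96 ± 0.15 (adjusted p = 0.0675 and 0.0752). Adi1, an enzyme of methionine salvage, was the exception: it was higher in HP1a KO, at 106, 102 and 99.1 CPM against 61.2, 59.9 and 57 CPM in WT, an effect of 0.79 ± 0.12 that missed the threshold (adjusted p = 0.0693), and its difference of 0.99 ± 0.16 had an adjusted p of 0.102.

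In the other direction stood Tigit, Rap2a and Cdk5rap1, which rose in HP1g KO. Tigit, an inhibitory receptor of T cells, was at 27.2, 22.9 and 25.9 CPM in HP1a WT, 19.7, 22.3 and 24.3 CPM in HP1a KO and 32.1, 31.8 and 30.8 CPM in HP1g WT. Its level in HP1g KO was 51.6, 56.9 and 54 CPM, above all other libraries. The HP1g KO effect was 0.78 ± 0.10 (adjusted p = 0.00788), the HP1a KO effect -0.19 ± 0.10 (unadjusted p = 0.0699) and the difference -0.97 ± 0.14 (adjusted p = 0.0675). Rap2a, a small GTPase, rose from 22.3, 23 and 24.2 CPM to 41.3, 39.3 and 44 CPM in the HP1g line (adjusted p = 0.0089) and had a difference of -1.07 ± 0.16 (adjusted p = 0.0675). Cdk5rap1, which modifies mitochondrial transfer RNAs, rose by 1.09 ± 0.14 in HP1g KO (adjusted p = 0.00895), with a difference of -1.30 ± 0.20 (adjusted p = 0.0752).

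Other genes had both effects at an unadjusted p under 0.05 with opposite signs, but differences that missed the adjusted threshold. Sdcbp2, an adaptor with PDZ domains, was at 45.8, 41.5 and 53.9 CPM in HP1a WT and 39.9, 37.2 and 31.9 CPM in HP1a KO. In the HP1g line it was at 36.2, 42.5 and 42.4 CPM in WT and 62.9, 66.8 and 58 CPM in KO. Neither pair of groups overlapped, and the difference was -1.01 ± 0.17 (adjusted p = 0.102). Akr1c13 and Lax1, an adaptor that restrains antigen receptor signalling, were also lower in HP1a KO and higher in HP1g KO, with differences of -0.71 and -0.37 (adjusted p = 0.121 and 0.398). Pacs1, Heatr1 and Prkd3 had the reverse pattern, with effects of 0.22, 0.34 and 0.65 in the HP1a line and of -0.15, -0.26 and -1.05 in the HP1g line (adjusted p of the difference 0.398 for each).

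**Figure D2:**
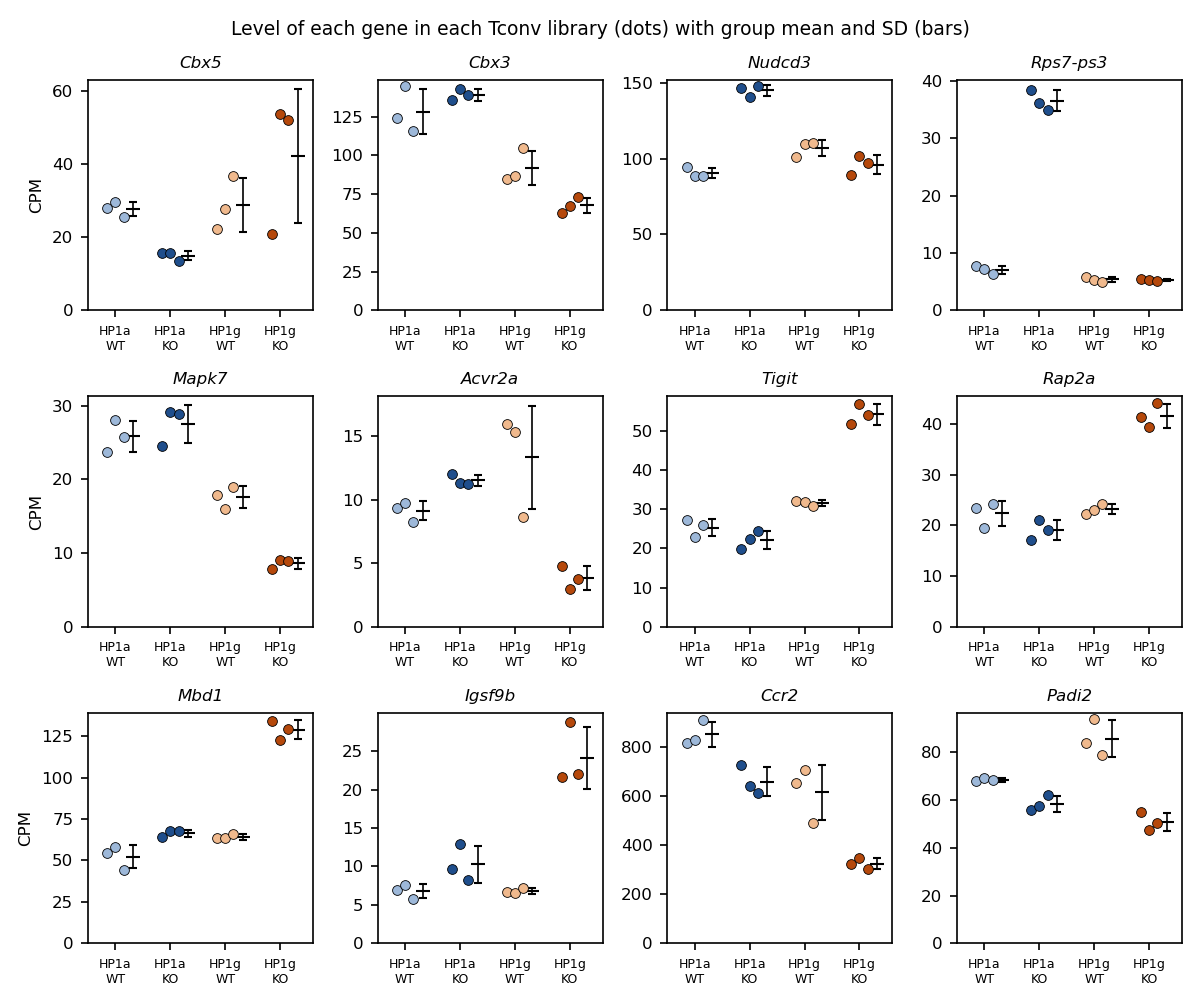
Level in CPM of 12 genes in each of the 12 Tconv libraries (dots), with the mean and SD of each group of 3 (bars). Rps7-ps3 and Nudcd3 are high in HP1a KO alone, Mapk7 and Acvr2a low and Tigit and Rap2a high in HP1g KO alone, while Mbd1, Igsf9b, Ccr2 and Padi2 differ from WT in the same direction in both lines.

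Within the lines, 4 genes (0.0236%) were called for the HP1a KO effect and 32 (0.188%) for the HP1g KO effect, 2 higher and 2 lower in HP1a KO and 21 higher and 11 lower in HP1g KO. Those of the HP1a line were Rps7-ps3 and the noncoding gene 1700030C10Rik, both higher, and Trav6d-7 and the predicted gene Gm42566, both lower. In HP1g KO the called genes included Aqp9, a glycerol and water channel (-2.17 ± 0.32, adjusted p = 0.0181), Swap70, a regulator of Rac and F-actin (-1.66 ± 0.29, adjusted p = 0.0478), the receptor Gpr34 (-1.12 ± 0.17, adjusted p = 0.0214) and Eea1, an early endosome tether (1.12 ± 0.20, adjusted p = 0.0474). The same genes had HP1a KO effects of -0.65, -0.27, -0.36 and 0.18 with unadjusted p of 0.0526 or more, and a difference that passed the adjusted test was not found for any of them (adjusted p = 0.456 to 0.476). The count of the HP1g line depended on single libraries: it was 7 without HP1g KO replicate 3 and 130 without HP1g KO replicate 1. DESeq2 called 214 and 244 genes in the HP1a and HP1g lines.

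Shared effects were assessed from the mean of the 2 KO effects, for which 17 genes (0.1%) were called, 13 higher and 4 lower. A gene was counted as shared where this mean had an adjusted p under 0.05 and both effects had the same sign and an unadjusted p under 0.05, which 21 genes met, 14 higher and 7 lower in KO. In all 21 the KO and WT libraries did not overlap in either line, which the selection on both effects made likely and which is no added support. Among all 16979 genes tested, 106 were higher and 146 lower in both KOs without overlap. The HP1g KO effect was the larger in 18 of the 21, and 14 also had a difference at an unadjusted p under 0.05. Without HP1a WT replicate 1 the count was 9, and without HP1g KO replicate 1 it was 39.

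Mbd1, which encodes a protein that binds methylated CpG and recruits H3K9 methyltransferase, was at 54.3, 58.4 and 44.4 CPM in HP1a WT and 64.1, 67.5 and 67.5 CPM in HP1a KO. In HP1g WT it was at 63.3, 63.4 and 66.2 CPM and in HP1g KO at 123 to 134 CPM. Its mean effect was 0.67 ± 0.06 (adjusted p = 0.00178), made of 0.34 in the HP1a line and 1.0 in the HP1g line. Igsf9b, a cell adhesion gene of the immunoglobulin superfamily, was at 6.99, 7.56 and 5.83 CPM in HP1a WT and 9.7, 12.9 and 8.24 CPM in HP1a KO, and rose from 6.62, 6.54 and 7.25 CPM to 21.6, 28.8 and 22 CPM in the HP1g line (mean effect 1.21 ± 0.13, adjusted p = 0.00341). Kif1b, a kinesin, differed from these in having like effects in the lines, 0.55 ± 0.10 and 0.63 ± 0.10 (mean effect 0.59 ± 0.07, adjusted p = 0.00781, difference -0.08 ± 0.15). Zfp992, a zinc finger gene on chromosome 4, had effects of 0.66 and 1.78 (mean effect 1.22 ± 0.16, adjusted p = 0.0112).

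The 7 shared genes that fell were Ccr2, Padi2, Cpox, Slc2a3, Slc16a6, Chsy1 and the predicted gene Gm42566. Ccr2, a chemokine receptor that guides cells to inflamed tissue, was at 819, 830 and 910 CPM in HP1a WT and 728, 641 and 612 CPM in HP1a KO. In the HP1g line it was at 653, 707 and 490 CPM in WT and 324, 348 and 303 CPM in KO. The mean effect was -0.65 ± 0.09 (adjusted p = 0.0158), and the effect was larger in the HP1g line (-0.92 against -0.37, unadjusted p of the difference 0.00991). Padi2, which converts arginine to citrulline in histones and other proteins, was at 67.9, 69.5 and 68.4 CPM in HP1a WT and 55.8, 57.4 and 62.3 CPM in HP1a KO, and fell from 83.9, 94.2 and 79 CPM to 54.8, 47.3 and 50.6 CPM in the HP1g line (mean effect -0.49 ± 0.06, adjusted p = 0.00704). Cpox, an enzyme of haem synthesis, and Slc2a3, a glucose transporter, had like effects in both lines, -0.51 and -0.54 for Cpox and -0.35 and -0.48 for Slc2a3 (adjusted p of the mean 0.0237 and 0.045). Chsy1, a chondroitin synthase, had effects of -0.47 and -0.86 (adjusted p of the mean 0.0431). Several of these calls were not stable: Ccr2 lost it without any of 6 libraries (adjusted p up to 0.0708), Cpox without any of 7, and Slc2a3, Slc16a6 and Chsy1 each without any of 10, while that of Mbd1, Igsf9b, Kif1b, Padi2 and Zfp992 held whichever library was left out.

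Some genes past the adjusted test lay near each other, a feature noticed after the values were seen, for which no background was computed. Of the 63 genes with an adjusted p under 0.05 for either KO effect or their mean, 16 lay within 1 Mb of another such gene, in 7 groups on chromosomes 10, 12, 17 and 18. All 16 had a mean effect above 0, as had 36 of the 63. However, 8 of the 16 were under 1 CPM in every WT library, which left them little room to be lower. Some of these, such as Vmn2r127, could pass the filter only through KO libraries, while Gm19196 had an HP1a KO effect of -0.24. The group at chr10:81699701-81958762 holds Zfp781, BC024063 and Gm32687, clustered genes of which the first 2 encode or resemble zinc finger proteins. Zfp781 was at 2.32, 1.57 and 2.82 CPM in HP1a WT and 5.24, 3.95 and 4.14 CPM in HP1a KO, and at 2.58, 3.36 and 2.92 CPM in HP1g WT and 9.6, 7.98 and 6.54 CPM in HP1g KO. Both KO groups were above both WT groups, with effects of 0.99 ± 0.25 and 1.44 ± 0.25 (adjusted p of the mean 0.0181, and above 0.05 without any of 3 libraries, up to 0.0733). BC024063 was at 3.2, 2.77 and 3.74 CPM in HP1a WT and 5.66, 4.09 and 4.3 CPM in HP1a KO, and at 1.61, 1.35 and 1.5 CPM in HP1g WT and 4.88, 5.19 and 6.77 CPM in HP1g KO. Its mean effect was 1.22 ± 0.15 (adjusted p = 0.00781).

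On chromosome 12, 3 groups between 18564407 and 23060285 hold a family of related transcripts. 5730507C01Rik had no count in the 3 HP1g WT libraries and 559, 697 and 686 counts in HP1g KO, so it was at least 671-fold higher in KO (floor of 3 counts over the WT group). In the HP1a line it had 2, 0 and 10 counts in WT and 24, 19 and 80 counts in KO, without overlap. 1700030C10Rik went the other way in size: it was at 0.4, 0.537 and 0.343 CPM in HP1a WT and 17.7, 15.3 and 10.9 CPM in HP1a KO, an effect of 5.08 ± 0.47, and at 0.315, 0.177 and 0.0609 CPM in HP1g WT and 2.48, 1.31 and 1.32 CPM in HP1g KO, an effect of 3.19 ± 0.47 (adjusted p of the mean 0.000457). A second gene of the same symbol had effects of 4.01 ± 0.82 and 1.84 ± 0.86 (adjusted p of the mean 0.11). 2410018L13Rik had 0 to 2 counts in each HP1a library and in each HP1g WT library, and 63, 39 and 36 counts in HP1g KO. Reads can be split between near-identical copies in this region, so the values of single copies are uncertain, and many of them rest on few counts.

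The promoters of 5 of these genes are shown because those on the same chromosome resembled each other in sequence. Those on chromosome 12 come from separate groups, and other members of the groups were not aligned. The promoters are RefSeq sequences of GRCm38.p6, from 250 bases before to 50 after the start. CpG dinucleotides are in capitals, and all 5 genes were matched. Their positions on that build are chr10:81930463-81930762 (minus strand) for Zfp781, chr10:82083070-82083369 (plus) for BC024063, chr12:18514260-18514559 (plus) for 5730507C01Rik, chr12:20815730-20816029 (minus) for 1700030C10Rik and chr12:23010194-23010493 (minus) for 2410018L13Rik.
Zfp781: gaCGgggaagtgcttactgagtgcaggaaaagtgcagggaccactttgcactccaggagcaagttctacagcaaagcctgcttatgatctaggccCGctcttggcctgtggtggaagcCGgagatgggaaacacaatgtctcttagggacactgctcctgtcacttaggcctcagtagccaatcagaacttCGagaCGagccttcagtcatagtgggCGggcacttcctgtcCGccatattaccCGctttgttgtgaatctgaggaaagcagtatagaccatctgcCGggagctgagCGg
BC024063: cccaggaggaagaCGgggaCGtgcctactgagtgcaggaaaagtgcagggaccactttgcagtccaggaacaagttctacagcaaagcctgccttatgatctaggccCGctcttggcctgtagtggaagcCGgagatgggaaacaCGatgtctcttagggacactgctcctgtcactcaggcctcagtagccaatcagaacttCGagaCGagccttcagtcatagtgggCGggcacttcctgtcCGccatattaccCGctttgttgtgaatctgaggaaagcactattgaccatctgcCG
5730507C01Rik: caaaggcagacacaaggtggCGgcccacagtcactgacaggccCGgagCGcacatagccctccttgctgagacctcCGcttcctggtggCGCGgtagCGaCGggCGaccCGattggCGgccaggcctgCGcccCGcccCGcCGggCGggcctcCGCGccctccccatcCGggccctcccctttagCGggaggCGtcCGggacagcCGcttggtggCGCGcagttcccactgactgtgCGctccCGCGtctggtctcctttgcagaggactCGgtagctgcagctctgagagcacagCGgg
1700030C10Rik: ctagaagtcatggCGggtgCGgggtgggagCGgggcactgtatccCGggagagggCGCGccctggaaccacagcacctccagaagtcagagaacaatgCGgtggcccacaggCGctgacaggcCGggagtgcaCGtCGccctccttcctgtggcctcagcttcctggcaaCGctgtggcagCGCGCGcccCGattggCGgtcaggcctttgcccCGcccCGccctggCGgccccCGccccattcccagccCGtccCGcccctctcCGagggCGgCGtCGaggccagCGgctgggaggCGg
2410018L13Rik: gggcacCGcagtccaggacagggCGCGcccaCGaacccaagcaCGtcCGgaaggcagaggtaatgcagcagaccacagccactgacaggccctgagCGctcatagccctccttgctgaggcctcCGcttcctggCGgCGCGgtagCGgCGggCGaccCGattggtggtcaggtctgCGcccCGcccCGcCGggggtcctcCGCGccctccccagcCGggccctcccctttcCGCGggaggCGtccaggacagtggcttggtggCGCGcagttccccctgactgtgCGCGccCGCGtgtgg

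The promoters of Zfp781 and BC024063 were identical at 96.9% of 288 aligned bases. Those of 5730507C01Rik and 2410018L13Rik were identical at 92.1% of 227 aligned bases, and that of 1700030C10Rik matched them at 77.2% of 206 and 78.4% of 250 bases. Between the chromosome 10 and the chromosome 12 promoters no more than 11 bases could be aligned. The promoters of 5730507C01Rik, 1700030C10Rik and 2410018L13Rik held 30, 29 and 31 CpG. Of the 32851 promoters of this length, whose median is 7, at least as many are held by 11.7%, 12.9% and 10.6%. Those of Zfp781 and BC024063 held 10 and 11, which 43.5% and 41.4% of promoters reach. Each of the 5 held the letters CCAAT once on either strand, as 37.4% of all promoters do at least once.

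The remaining groups had larger effects in the HP1g line. On chromosome 17 the vomeronasal receptor genes Vmn2r96 and Vmn2r127 were higher in HP1g KO. Vmn2r96 was at 1.59, 1.24 and 1.75 CPM in HP1g WT and 6.96, 7.94 and 13 CPM in HP1g KO, and at 2.08, 1.18 and 1.48 CPM in HP1a WT and 2.99, 3.88 and 3.54 CPM in HP1a KO (mean effect 1.87 ± 0.21, adjusted p = 0.00374). Vmn2r127 had no count in HP1g WT and 102, 40 and 23 counts in HP1g KO, at least 57.01-fold higher. Zfp53 and Zfp52, neighbours on the same chromosome, rose in HP1g KO by 0.70 ± 0.10 and 0.63 ± 0.10 (adjusted p = 0.0181 and 0.0302), with HP1a KO effects of 0.16 and -0.03. Mbd1 lies beside Myo5b, which had 0 or 1 counts in the HP1g WT libraries and 73, 40 and 39 counts in HP1g KO.

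**Figure D3:**
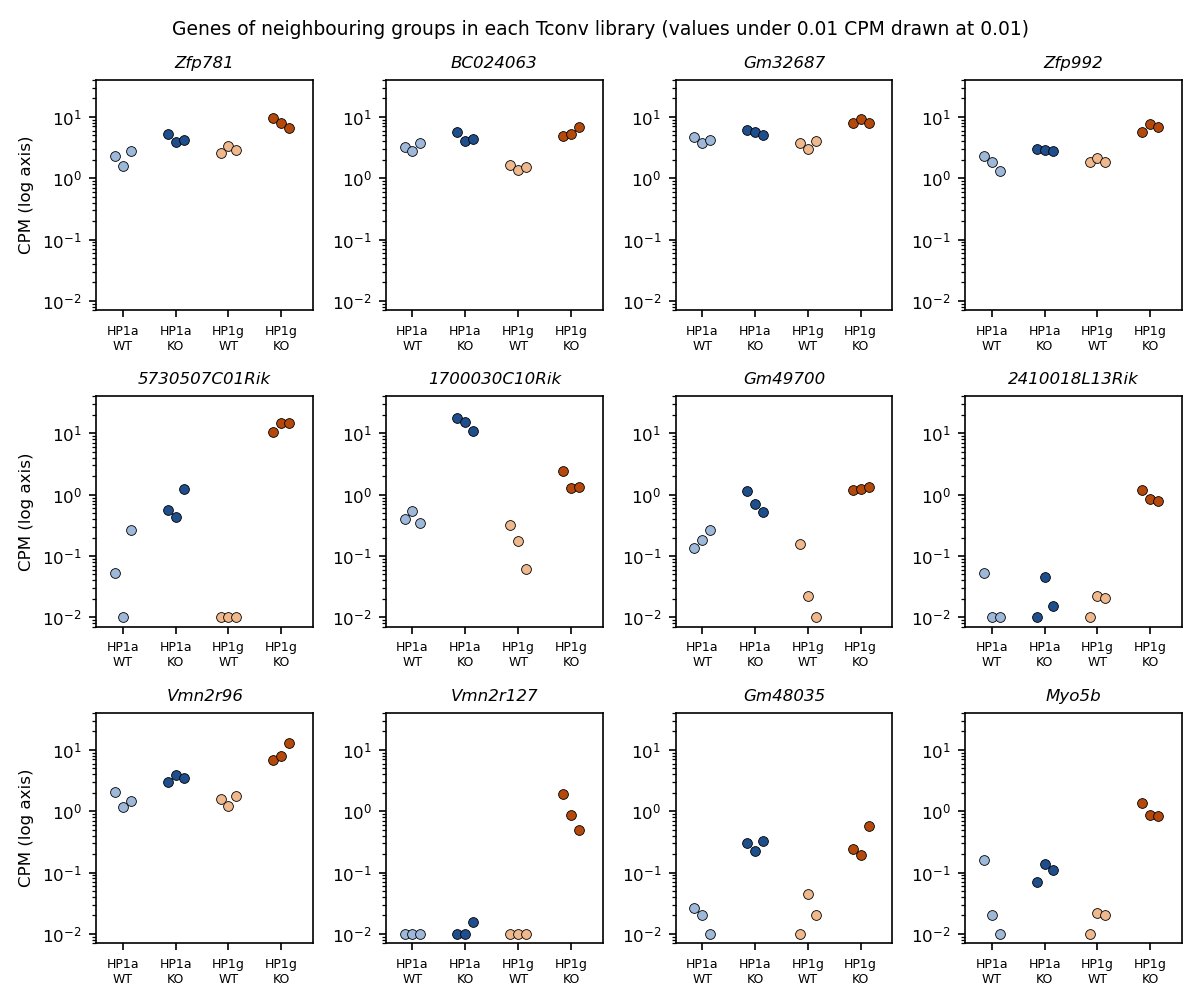
Level in CPM (log axis) of 12 genes in each Tconv library (dots), for genes of neighbouring groups and Zfp992. Values under 0.01 CPM are drawn at 0.01. Zfp781, BC024063 and 1700030C10Rik are higher in both KO groups than in the WT group of the same line, while 2410018L13Rik, Vmn2r127 and Myo5b are high in HP1g KO only.

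Zinc finger genes as a class were more often higher than lower in both KOs at an unadjusted p under 0.05. Of 335 tested genes named Zfp, 27 were higher and 6 lower in HP1a KO, where 4.61% of all genes were higher and 2.55% lower. In HP1g KO 41 were higher and 2 lower, where 5.41% of all genes were higher and 5.28% lower, and 4 of the 41 passed the adjusted test (Zfp992, Zfp53, Zfp52 and Zfp781). For the mean effect 46 were higher and 5 lower, against 6.03% and 4.98% of all genes, and 8 were past that p in the same direction in both lines. Their median effects were 0.07 in the HP1a line and 0.09 in the HP1g line, beside medians of 0.01 and 0.00 over all genes. For the difference 10 were higher and 22 lower, where 4.72% of all genes were higher and 3.42% lower. Of 12 protocadherin genes tested, of 58 in the list, 7 were higher and none lower for the mean effect, but genes this low pass the filter only where some group expresses them. Of 28 tested genes for H3K9 methylation and KAP1, 2 were higher in HP1a KO and 1 in HP1g KO and none was lower, and none passed for the difference.

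The exhaustion genes compiled by the study passed an unadjusted test mainly in the HP1g line. This list holds inhibitory receptors and other genes of chronically stimulated T cells, was chosen by the study, and is not independent evidence of a direction. Of 97 members tested, 27 were higher and 6 lower in HP1g KO at an unadjusted p under 0.05, against 2 and 1 in HP1a KO. No member passed in both lines. Of all genes 5.41% were higher and 5.28% lower in HP1g KO and 4.61% and 2.55% in HP1a KO. For the difference these shares were 4.72% and 3.42%. For the difference 3 were higher and 18 lower, with a median of -0.23 beside 0.00 over all genes, and no member passed the adjusted test. In HP1g KO 2 members did: Tigit rose, and Ptger4, a prostaglandin E2 receptor, fell by 0.75 (adjusted p = 0.0291). The count of 18 was 13 without HP1g KO replicate 2 and 31 without HP1g KO replicate 1.

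Pdcd1, which encodes the inhibitory receptor PD-1, was at 17.9, 25.8 and 52.3 CPM in HP1g WT and 43.9, 168 and 93.3 CPM in HP1g KO, and at 53.6, 42 and 34.9 CPM in HP1a WT and 28.4, 34.3 and 31.1 CPM in HP1a KO. HP1g KO replicate 1 was thus below the highest HP1g WT library, and the difference was -2.15 ± 0.68 (unadjusted p = 0.00996, adjusted p = 0.478). Lag3, a receptor that binds MHC class II, was at 0.866, 1.13 and 3.11 CPM in HP1g WT and 2, 15.1 and 14.7 CPM in HP1g KO (difference -2.92 ± 0.97, adjusted p = 0.497). Il21 and Il10, cytokines of follicular helper and regulatory T cells, had differences of -3.05 ± 0.93 and -3.72 ± 1.16 (adjusted p = 0.476 and 0.478). Again replicate 1 had the lowest of the HP1g KO values, 15 CPM for Il21 against 98.1 and 72 CPM. The mean of log2(CPM + 1) over the 97 members was 4.91, 4.88 and 5.03 in HP1g WT and 5.02, 5.55 and 5.41 in HP1g KO, and 4.68, 4.71 and 4.49 in HP1a WT and 4.51, 4.68 and 4.79 in HP1a KO, so the groups overlapped in both lines. Treg markers, 12 genes, summed to 590 to 734 CPM in HP1g KO, 451 to 579 CPM in HP1g WT, 478 to 548 CPM in HP1a WT and 476 to 538 CPM in HP1a KO. At an unadjusted p under 0.05, 5 of the 12 were higher in HP1g KO (Ctla4, Ikzf2, Il10, Izumo1r and Tigit), all of which the exhaustion list also holds. The lower ones were 3 (Il2ra, Lrrc32 and Tnfrsf18), where 5.41% of all genes were higher and 5.28% lower. Foxp3, which defines Treg, was at 8.80, 4.17 and 1.28 CPM in HP1g WT and 2.17, 1.87 and 2.41 CPM in HP1g KO, with overlap (-1.14, unadjusted p = 0.0754). CD8 and NK cell markers summed to 35.5 to 88.9 CPM in HP1g KO and 120 to 126 CPM in HP1g WT. Most of that came from Klrk1, the receptor NKG2D, at 97.9, 108 and 99.0 CPM in HP1g WT and 62.8, 24.2 and 27.9 CPM in HP1g KO (-1.41, unadjusted p = 0.0022), and Cd8b1 was at 3.18 to 5.75 and 5.11 to 6.84 CPM. The cells were sorted as CD4+, and how completely the sort removed other cells was not tested. The part of any Treg, CD8 or NK cells in these results was not tested either. In sorted bulk cells a change in the share of a cell type and a change of RNA per cell cannot be told apart.

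**Figure D4:**
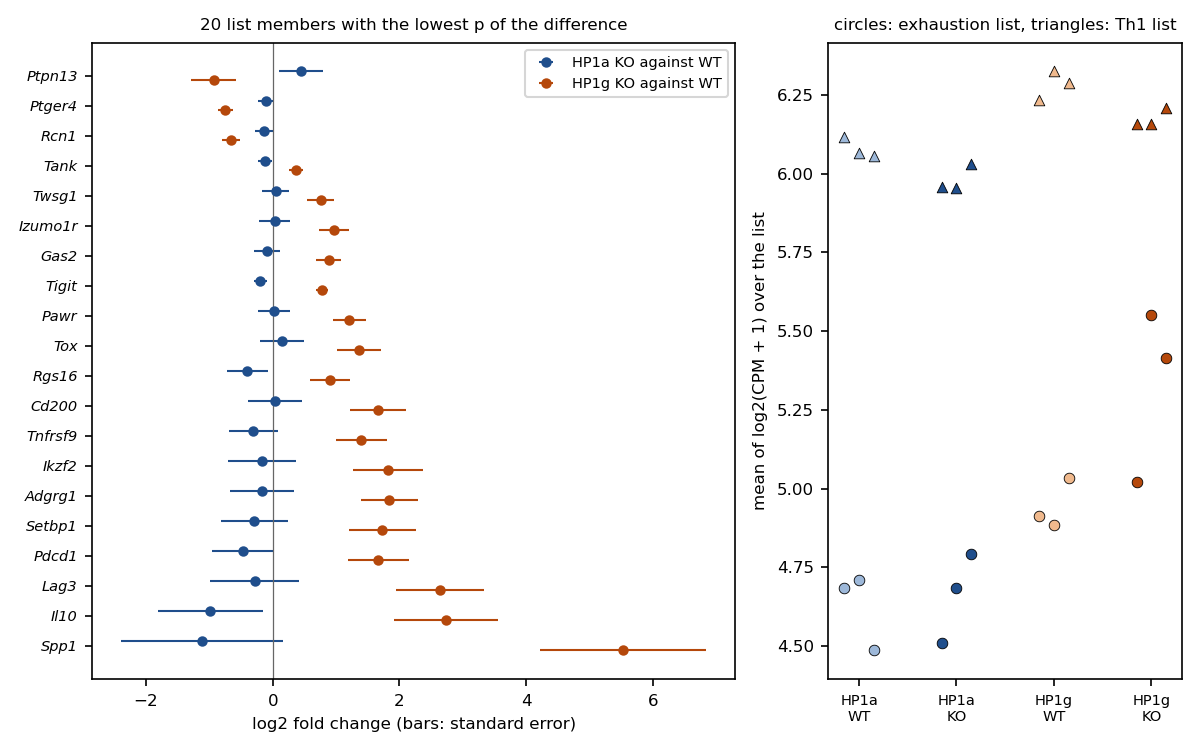
Left, log2 KO effect with its standard error in the HP1a line (blue) and the HP1g line (orange) for the 20 exhaustion genes with the lowest p of the difference, which chose them. Of these, 17 are above 0 in the HP1g line and 6 in the HP1a line. Right, mean of log2(CPM + 1) over the exhaustion list (circles) and the Th1 list (triangles) in each library of the 4 groups, where HP1g KO replicates 2 and 3 have the highest exhaustion means.

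Other T cell programmes also differed in their counts between the lines, at unadjusted p-values. Of 12 follicular helper genes tested, 7 were higher in HP1g KO, where 5.41% of all genes were higher and 5.28% lower, among them Cxcr5, the receptor that leads to B cell follicles (1.45 ± 0.34, adjusted p = 0.136), and none passed in HP1a KO. For the difference 4 were lower and none higher, where 3.42% of all genes were lower and 4.72% higher. Th2 genes stood in the reverse position: 8 of 12 were lower in HP1g KO, 1 was higher in HP1a KO and 7 were higher for the difference. Gata3, the master regulator of Th2 cells, and Il4 were picked with their values already known. Gata3 had effects of 0.14 in the HP1a line and -1.08 in the HP1g line (difference 1.22 ± 0.43, adjusted p = 0.515), and Il4 had effects of 0.33 and -1.76 (difference 2.08 ± 0.83, adjusted p = 0.547). Ccr4, a chemokine receptor of Th2 cells, was at 29.5, 61.8 and 35.4 CPM in HP1a WT, 74, 62.7 and 58.4 CPM in HP1a KO, 49, 36 and 32 CPM in HP1g WT and 17.6, 24.8 and 29 CPM in HP1g KO. It had the sole Th2 effect past an unadjusted p under 0.05 in both lines, with opposite signs and no overlap in the HP1g line (difference 1.33 ± 0.39, adjusted p = 0.456).

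Genes of Th1 cells were lower in both lines more often than higher. Of 72 tested members of the study's Th1 list, likewise chosen by the study, 10 were lower and 3 higher in HP1a KO, 15 lower and 3 higher in HP1g KO, and 4 lower and 6 higher for the difference, none past the adjusted test. Of all genes 2.55% were lower and 4.61% higher in HP1a KO, 5.28% and 5.41% in HP1g KO, and 3.42% and 4.72% for the difference. Ifng, the effector cytokine of Th1 cells, was at 458, 342 and 440 CPM in HP1a WT and 277, 247 and 250 CPM in HP1a KO, without overlap (-0.68 ± 0.14, adjusted p = 0.353, unadjusted p = 0.000441). In the HP1g line it ran from 424 to 556 CPM over both genotypes (-0.06 ± 0.14), and the difference was -0.62 ± 0.20 (adjusted p = 0.478). Ltb, the lymphotoxin β gene, was at 674, 644 and 651 CPM in HP1a WT and 517, 493 and 499 CPM in HP1a KO, and its difference was -0.44 ± 0.10 (adjusted p = 0.362). Both genes were thus lower in HP1a KO and near their WT level in HP1g KO, without passing the adjusted test.

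Most lists of basic cell functions gave few genes past an unadjusted p for the difference. All 41 mitosis and condensin genes had a difference below 0, with a median of -0.96, and all 41 had an HP1g KO effect above 0, with a median of 1.02, but 1 gene of the list, Smc4 of condensin, passed for the difference and the same gene in HP1g KO. DNA replication genes had a median difference of -0.52, with none of 40 past the test for the difference. In HP1g KO 4 of the 40 were higher and 0 lower, with a median effect of 0.48, where 5.41% of all genes were higher. Of 87 cytosolic ribosomal protein genes 16 were lower in HP1g KO, none passed in HP1a KO and 8 were higher for the difference. Of all genes 5.28% were lower in HP1g KO and 4.72% higher for the difference. Type I interferon-stimulated genes, 34 tested, had none past the test for the difference.

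Erythroid transcripts were lowest in HP1a WT, the baseline of the HP1a line, and some myeloid and dendritic cell markers were at 0 there. The 18 myeloid markers summed to 97.5 to 116 CPM in HP1a WT, with 4 markers at 0. They summed to 98.5 to 350 CPM in HP1a KO, 103 to 783 CPM in HP1g WT and 180 to 255 CPM in HP1g KO. None was at 0 in those groups. At an unadjusted p under 0.05, 9 were higher in HP1a KO, where 4.61% of all genes were higher and 2.55% lower. Markers at 0 in HP1a WT could only be higher in HP1a KO. The 11 MHC class II and dendritic cell markers summed to 121 to 139 CPM in HP1a WT, with 3 at 0, and to 153 to 646 CPM in HP1a KO, without overlap, where 6 of the 10 tested were higher and 1 lower at that p. They summed to 120 to 208 CPM in HP1g WT and 73.1 to 337 CPM in HP1g KO. The erythroid markers, 9 of them in the table, summed to 2.05 to 3.38 CPM in HP1a WT, 26 to 765 CPM in HP1a KO, 76.6 to 5002 CPM in HP1g WT and 159 to 3376 CPM in HP1g KO. The libraries of the HP1g line with the highest erythroid level were replicate 1 of WT and of KO. When both were left out, a choice made after seeing the data, the difference was called for 6 genes, 21 genes had shared and 4 opposite effects, and 30 exhaustion genes were lower for the difference. For the difference, 8 of 18 myeloid, 5 of 9 erythroid and 2 of 10 MHC class II and dendritic cell markers were higher at an unadjusted p under 0.05. None of these markers was lower at that p, and none passed the adjusted test. Of all genes 4.72% were higher and 3.42% lower for the difference. Median differences were 6.28 for the myeloid, 7.08 for the erythroid and 2.09 for the MHC class II and dendritic cell markers. The part of such transcripts in the difference was otherwise not tested. Genes within 20 Mb of Cbx5 (214 tested) or Cbx3 (216 tested) held no gene called for the difference or the HP1a KO effect and 1, Gm35853 near Cbx5, for the HP1g KO effect.

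The direction of the difference was compared with that in the other libraries of the same lines, which share no library with the Tconv comparison. In Tconv transferred with Treg, where 506 of 18573 genes (2.72%) were called for the same difference (176 higher and 330 lower), 83.3% of the 1351 genes tested there that had an unadjusted p under 0.05 in Tconv had the same sign, and 64.4% of all genes did. Of the 506, 462 were tested in Tconv, and 411 of these (89%) had the same sign there, 158 of them at an unadjusted p under 0.05 and 2 at that p with the opposite sign. In naive cells 1 of 16090 genes (0.00622%) was called, and 36.2% of 1072 genes had the same sign as in Tconv, beside 42.1% of all genes. The 506 calls rest on 11 libraries, and with HP1g KO replicate 3 of that condition, which the authors left out, they were 12.

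**Figure D5:**
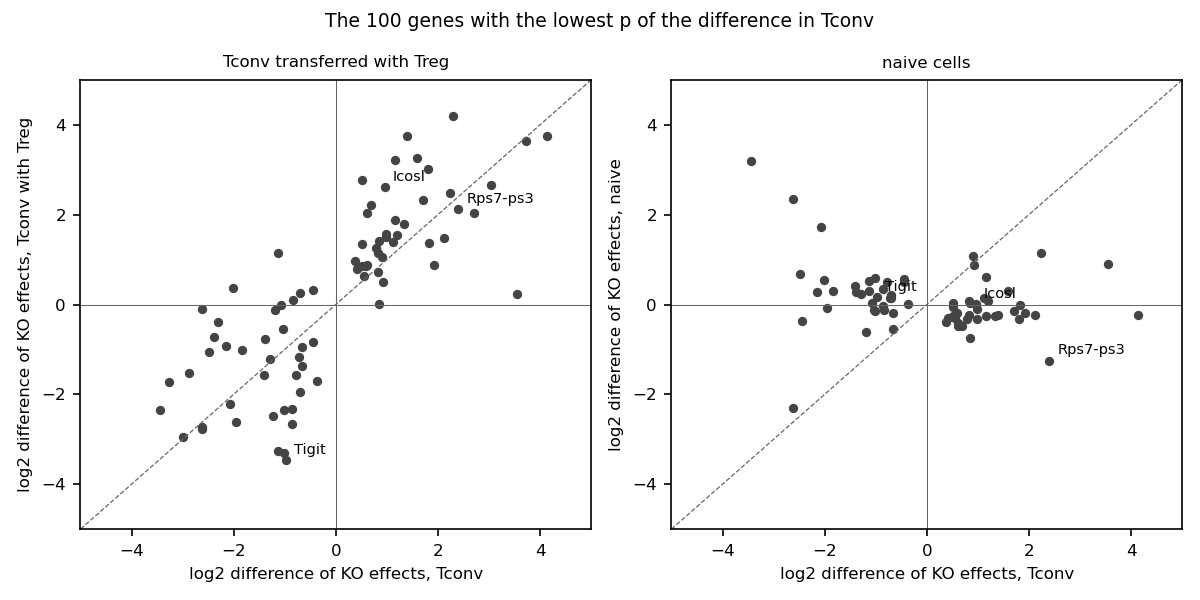
Log2 difference of KO effects in Tconv (x axis) against that in Tconv with Treg (left) and in naive cells (right) for the 100 genes with the lowest p of the difference in Tconv, of which 98 and 77 were tested there; 19 and 8 lie outside the axes. In Tconv with Treg 91 of 98 genes have the same sign, and in naive cells 24 of 77.

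Nudcd3 had a difference of 1.42 in Tconv with Treg (adjusted p = 0.0149) and of 0.03 in naive cells (unadjusted p = 0.905). Rps7-ps3 had differences of 2.13 (adjusted p = 0.0413) and -1.25 (unadjusted p = 0.118). For Trav6d-7 the difference was -12.05 in Tconv with Treg (unadjusted p = 0.00843) and -0.458 in naive cells (unadjusted p = 0.757). Its large difference was thus not seen in naive cells. Tigit, not called in Tconv, had a difference of -3.47 in Tconv with Treg (adjusted p = 0.0233), with effects of -1.58 in HP1a KO and 1.89 in HP1g KO (adjusted p = 0.152 and 0.185). Of the exhaustion list 55 of 96 members were lower and 6 higher for the difference in that condition, 29 and 2 of them past the adjusted test, where 9.86% of all genes were lower and 8.18% higher at an unadjusted p under 0.05. In naive cells 2 of 85 were lower and 3 higher, where 1.26% of all genes were lower and 1.95% higher. Among the shared genes the mean effect had the same sign as in Tconv for 19 of 21 in Tconv with Treg and for 14 of the 18 tested in naive cells. Over all genes tested the mean effect had the same sign for 58.9% with Treg and 55% in naive cells. The sign of a mean can follow the larger effect alone, so these counts do not show that both lines changed. In naive cells Zfp781 had effects of 1.46 in the HP1a line and 1.37 in the HP1g line (unadjusted p = 0.000288 and 0.000538), BC024063 of 1.48 and 1.20, and Vmn2r96 of 1.06 and 0.93. In Tconv with Treg the effects of these genes in the HP1a and HP1g lines were 0.45 and 1.63 for Zfp781 (unadjusted p = 0.217 and 0.00119), 0.57 and 1.32 for BC024063 (0.296 and 0.0397) and -0.27 and 2.46 for Vmn2r96 (0.581 and 0.000739). There 5730507C01Rik had effects of -2.19 and 7.15 (unadjusted p = 0.214 and 0.0024) and 1700030C10Rik of 5.01 and 1.49 (0.000446 and 0.147). In the HP1a line 1700030C10Rik rose in naive cells by 3.07 (adjusted p = 0.0494), and its effect in the HP1g line was 0.33 (unadjusted p = 0.39). Mbd1 had naive effects of -0.03 in HP1a KO and 0.50 in HP1g KO. With Treg its effects were 0.08 in HP1a KO (unadjusted p = 0.595) and 1.03 in HP1g KO (unadjusted p = 4.95e-05).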

How the data were processed

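RNA-seq libraries were prepared by SMART-Seq amplification of polyadenylated RNA from sorted cells. The authors trimmed reads with Trim Galore in the nf-core/rnaseq pipeline, aligned them with STAR and quantified genes with Salmon on GRCm39 with an Ensembl annotation (the submitters' notes name STAR, Salmon and GRCm39). What the authors deposited is 1 table of estimated counts, unscaled and unfiltered, for 56748 genes, of which 82.65% were whole numbers in the 12 libraries. They were rounded. No column of another series was present.

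Column names tied the table to the samples, and sample titles gave the groups. Counts of the 12 libraries were fitted with edgeR 4.0.16 in R 4.3.3 (TMM, filterByExpr, glmQLFit with robust estimation, glmQLFTest) with 4 group means, and both KO effects, their difference, their mean and the WT contrast were taken from this fit. Where all libraries of a group were at 0, a floor of 3 counts over the group was used for the fold. Replicates with the same number were correlated in their deviations from group means at 0.197, 0.3 and -0.144 in the HP1a line. In the HP1g line these values were 0.614, 0.0209 and 0.53. Between unlike numbers they ran from -0.389 to 0.201 in the HP1a line and from -0.681 to 0.601 in the HP1g line. This did not settle whether the numbers mark pairs, and they were not taken as pairs in the main fit. The precision of low genes is limited by depth: 3 counts correspond to 0.0467 to 0.08 CPM, and this floor covers counting error only. Alternatives were DESeq2 1.42.0 (the test used by the authors), RLE normalisation, no filter, no fold threshold, all 35 libraries in 1 fit, only the 6 libraries of a line, no robust estimation, a replicate block and leaving out each library. Scripts were tested on simulated data. ATAC-seq samples were not analysed here.

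Named genes were Cbx1, Cbx3 and Cbx5. Leaving out receptor segments, predicted genes, RIKEN clones, pseudogenes and genes under a mean of 5 CPM, the rule further took the 8 highest and 8 lowest called differences, filled up by the lowest unadjusted p, the 4 lowest p of each opposite sense, the 6 lowest p of the mean in each direction, the 4 highest and 4 lowest called genes of each line, up to 3 members of each list by the p of the difference, and called genes within 20 Mb of Cbx5 or Cbx3. Called genes outside these limits, and genes next to each other, were named after their values were seen. The members of the comparison, the gene lists and the rule were chosen with earlier results of these data known. Lists were described by counts and medians without a set test. Gene positions are from GENCODE on GRCm39, in which 108 tested genes were not found. Promoters are from RefSeq and were aligned locally with Biopython 1.88.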

Additional observations from a re-analysis of the deposited data

Results flagged for a closer look

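The KO effects of the lines differed by a test of the difference itself in 3 genes. For Rps7-ps3 the adjusted p of the difference was 0.000179 (edgeR quasi-likelihood test), with higher levels in 3 of 3 HP1a KO libraries than in any HP1a WT library and overlapping groups in the HP1g line. For Trav6d-7 it was 0.00109, with no count in 3 of 3 HP1a KO libraries and 71 or more counts in each of the other 9. For Nudcd3 it was 0.0165, with higher levels in 3 of 3 HP1a KO libraries, and it lost the threshold in 7 of 12 fits that left out 1 library. Groups of 3 libraries are too small for a check for outlying values.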

How the results depend on the processing

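DESeq2 called more genes than edgeR throughout: 142 for the difference (2 in edgeR), 214 for the HP1a KO effect (4), 244 for the HP1g KO effect (32), 204 for their mean (17) and 583 between the WT groups (243), with 144 shared (21) and 33 opposite genes (1), and the difference in naive cells had 14 (1) and that with Treg 1447 (506). Without a filter on low counts the difference had 6, the HP1a KO effect 8, the mean 26, the WT contrast 155 and the naive difference 8 calls. Without a fold threshold the HP1g KO effect had 54, the mean 29 and the WT contrast 1754. With all 35 libraries in 1 fit the difference had 0 calls, opposite genes numbered 0 and the WT contrast had 46. With only the 6 libraries of a line the HP1a KO effect had 16 calls and the HP1g KO effect 7. Without both HP1g libraries of highest erythroid level, an alternative chosen after seeing the data, the difference had 6, the HP1a KO effect 10 and opposite genes 4. With HP1g KO replicate 3 included, Tconv with Treg had 12. RLE normalisation and a fit without robust estimation left every count of calls within 1.5 times. The causes were not tested.

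Leaving out 1 library at a time gave 2 to 5 calls for the difference, 3 to 6 for the HP1a KO effect, 7 to 130 for the HP1g KO effect, 10 to 24 for the mean, 20 to 335 between the WT groups, 9 to 39 shared and 0 to 3 opposite genes, 0 to 3 for the naive difference and 51 to 903 for that with Treg. Of 434 values of named genes under the other settings 374 kept their direction and side of the threshold, 23 lost and 37 gained the threshold. Of 744 with 1 library left out 666 kept both, 74 lost and 4 gained it. None changed direction.

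A further alternative took the replicate number as a block, although the labels do not state pairing and the correlations did not settle it. The difference then had 14 calls, the HP1a KO effect 14, the HP1g KO effect 73 and the mean 46, with 49 shared and 10 opposite genes. The same difference had 0 calls in naive cells and 274 with Treg.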
